A study of Homo sapiens with 4 samples.

Results

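The peaks described here carried a promoter annotation although they lay between 1000 and 3000 bp from the transcription start site (TSS) they were annotated to. They came from 1 deposited peak list of YTHDF2 RNA immunoprecipitation sequencing (RIP-seq) in HCCLM3 cells. A peak was a member if it lay on chromosomes 1 to 22 or X, was of the promoter class, lay more than 1000 bp from the TSS by the deposited distance, and was not named for a small nucleolar RNA, small Cajal body RNA or microRNA. The rule took 1101 of 14858 peaks (7.41%), which was 43.2% of the 2548 promoter-class peaks. Of these, 576 were annotated at 1 to 2 kb and 525 at 2 to 3 kb. No enrichment value entered the rule.

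RNA pulled down with YTHDF2 (2 libraries) was set against input RNA of the same cell line (2 libraries). Both groups came from HCCLM3, a metastatic hepatocellular carcinoma line, labelled WT, with no treatment in the labels. RNA of both was taken with the Magna RIP kit and sequenced after a stranded total RNA library kit. The labels do not say whether the 2 libraries of a group came from separate cultures. No pulldown with a control antibody was analysed here, so a peak shows RNA above input and not YTHDF2 binding by itself. The list held 1 combined value per peak, so neither the spread between libraries nor the sequencing depth could be given. Where intervals are printed, they cover counting error only, since reads amplified by PCR without molecular identifiers are not independent molecules. No test between classes of peaks was made, because peaks of 1 list are not replicates.

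YTHDF2 is a cytoplasmic protein that binds N6-methyladenosine (m6A) in messenger RNA and recruits the CCR4-NOT deadenylase, which shortens the poly(A) tail. In messenger RNAs m6A is known to be dense near stop codons and in 3′ UTRs. A promoter class in an RNA peak list comes from distance alone: annotation tools give it to any peak within a set distance of a TSS before they look at exons, so that the body of a short gene, or the end of the gene upstream, takes that name. A peak of RIP RNA in this class is therefore a stretch of RNA and not a promoter. For this reason each member was also given to the RefSeq gene whose span contained its summit, the position of the highest signal.

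Sequence could be read only where a RefSeq window around a TSS of another transcript crossed a member. This was so for 7 members, and the summit itself lay in the window of 3. The 30 bases around these 3 summits are shown, 5′ to 3′ on the strand of the gene that contains the summit (RefSeq, GRCh38.p14), because they are the only members whose RNA sequence at the summit could be read here. Capitals mark GGAC, the core of the best known m6A consensus. CAVIN3, a caveolar coat protein, is at chr11:6319078-6319107 on the minus strand. TIMM50, a subunit of the mitochondrial inner membrane import channel, is at chr19:39483165-39483194 on the plus strand. TTBK2, a kinase needed for cilium formation, is at chr15:42739137-42739166 on the minus strand.
CAVIN3: tcagaatgtagcactcacgccctaataagg
TIMM50: acaagcacagattctggagtccctgaccct
TTBK2: ccaaGGACagagtatcggcagaaacatgga

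GGAC was found at 1 of these 3 summits. Among all 35116 RefSeq windows of 300 bases, searched on both strands, 66.3% held GGAC on the transcript's strand and 87.4% on either strand, and 10.2% held it on the transcript's strand in their middle 30 bases. These windows lie around start sites, whereas members lie more than 1000 bp from the TSS they were annotated to. The shares are therefore not a matched background for the 3 summits. The CAVIN3 peak had a fold enrichment of 2.21 from 129 RIP fragments, 146 bp before the end of the gene. The TIMM50 peak had a fold of 2.98 from 22 fragments, 10600 bp before the gene end. The TTBK2 peak had a fold of 3.35 from 16 fragments and was deposited under CDAN1, whose TSS lay 1822 bp away.

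For each peak the authors gave a fold enrichment, RIP over background at the highest point, and the peak caller's p and q. How many RIP fragments lay at the summit was worked out from fold and p together. A peak is said to be called where its q was 0.01 or less. Of the members, 572 of 1101 were called, or 52.0% (exact Clopper-Pearson 95% interval 49.0 to 54.9%), beside 37.3% of all peaks in the list. The share was 60.0% among the 1193 promoter-class peaks within 1 kb (57.2 to 62.8%) and 51.1% among the 4042 3′ UTR peaks (49.6 to 52.7%). It was 45.5% in exon peaks and 7.19% in intron peaks. The members' share was close to that of 3′ UTR peaks and below that of peaks closer to a TSS, as a description of this list.

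The median fold was 2.30 in members (exact order-statistic 95% interval 2.24 to 2.38), 2.35 in promoter-class peaks within 1 kb and 2.12 in 3′ UTR peaks. It was 2.41 over the whole list, 2.46 in exon peaks and 2.61 in intron peaks, all above the members' median. Median RIP fragments were 42 in members, 56 in promoter-class peaks within 1 kb, 44 in 3′ UTR peaks and 12 over the whole list. The recovered background had a median of 18.4 in members, 23.1 in promoter-class peaks within 1 kb and 19.7 in 3′ UTR peaks. Weak peaks were part of the class too: 197 members (17.9%) rested on 4 or fewer fragments, against 34.2% of all peaks. This share was 16.3% in promoter-class peaks within 1 kb and 6.09% in 3′ UTR peaks. A fold of 2.61, which 3 fragments give over the lowest background, occurred in 55 members. The members' folds ran from 1.16 to 8.93 and their fragments from 2 to 304. Many fragments did not go with a high fold: the 290 members with at least 100 fragments had a median fold of 1.99. The way peaks enter the list favours this by itself, since with many fragments a lower fold is enough for a small p.

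The gene that held the summit often differed from the deposited gene. A summit lay in some gene in 1070 members, in several genes in 201, and in none in 31. In 430 members (39.1%) the containing gene was another than the deposited one. Downstream of the TSS, 601 members (54.6%) lay inside the deposited gene and 118 (10.7%) in another gene. Upstream, where a peak cannot belong to the transcript of the annotated TSS, 312 members (28.3%) lay in another gene. A further 39 lay upstream of the annotated TSS but still inside the deposited gene's span, which includes other start sites. Of the 31 members in no gene, 74.2% were upstream too. In all, 374 members (34.0%) were upstream of the TSS they were annotated to.

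Members that lay in another gene had a share called close to that in the deposited gene. Downstream in another gene, 56.8% were called (47.3 to 65.9%) with a median of 41.5 fragments. Upstream in another gene, 53.5% were called (47.8 to 59.2%) with a median of 48. Downstream in the deposited gene, 53.9% were called (49.8 to 58.0%) with a median of 48. By contrast 20.5% of the 39 upstream members within the deposited gene were called (9.30 to 36.5%), with a median of 3 fragments, and 6 of the 31 members in no gene were called.

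Many summits lay close to the end of a gene. Of the 1010 members in a gene of known strand, 315 (31.2%, 28.3 to 34.2%) had the summit within 500 bp of the gene's 3′ end. This share was 15.5% in promoter-class peaks within 1 kb (13.4 to 17.8%), 38.3% in 3′ UTR peaks (36.7 to 39.8%) and 1.33% in exon peaks, so that the members stood between the closer promoter-class peaks and the 3′ UTR peaks. The share was 18.1% within 200 bp and 40.1% within 1000 bp of the end. The 315 summits near a gene end were called in 69.2% (63.8 to 74.3%), with a median of 66 fragments. The 695 summits farther away were called in 46.0% (42.3 to 49.8%), with a median of 39 fragments. The median fold was 2.36 near a gene end (2.22 to 2.45) and 2.26 farther away (2.18 to 2.37). The genes differed in length, with a median of 3855 bp for summits near the end and 15722 bp for those farther away.

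**Figure D1:**
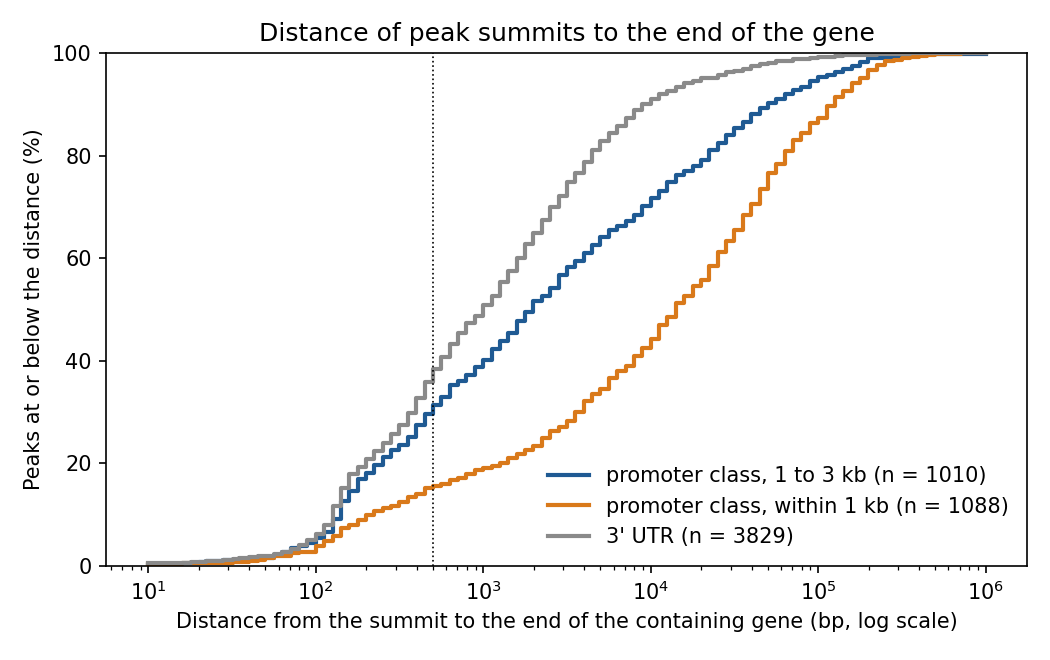
Cumulative share of peaks (%) against the distance from the summit to the 3′ end of the containing gene in bp on a log scale, for promoter-class peaks at 1 to 3 kb, promoter-class peaks within 1 kb and 3′ UTR peaks. At 500 bp (dotted line) the members stand at 31.2%, between 15.5% for the closer promoter-class peaks and 38.3% for 3′ UTR peaks.

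Among upstream members in another gene, 44.5% of summits (38.5 to 50.6%) lay within 500 bp of the gene end, beside 41.8% (31.9 to 52.2%) of downstream members in another gene. Of the 312 upstream members that lay in another gene, 272 had a known strand for both genes, and in 220 of these the containing gene ran in the same direction as the annotated TSS, so that its 3′ end pointed at that TSS. The distance rule bears on this by itself: a gene running towards a TSS less than 3 kb away often ends in that gap, and a gene running the other way has its 3′ end on the far side. In this tandem arrangement 113 summits (51.4%, 44.6 to 58.1%) lay within 500 bp of the gene end, 60.5% were called and the median was 57 fragments. In the 52 members whose containing gene ran the opposite way, 8 (15.4%, 6.88 to 28.1%) lay within 500 bp of the end, 26.9% were called and the median was 13 fragments. The deposited name of such a peak was the downstream neighbour's. STIP1, a co-chaperone that links HSP70 to HSP90, had a fold of 4.76 (4.05 to 5.57) from 156 fragments, 171 bp before its end, and was deposited as FERMT3. CALR, a lectin chaperone of the endoplasmic reticulum, had a fold of 3.73 from 155 fragments, 68 bp before its end. ANAPC11, the RING subunit of the anaphase-promoting complex, had a fold of 3.47 from 191 fragments and was deposited as NPB.

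Not every strong upstream member was of the tandem kind. PPP1R14B, an inhibitor of protein phosphatase 1, had a fold of 3.99 from 143 fragments, 53 bp before its end, and was deposited under its antisense transcript PPP1R14B-AS1. SLC25A5, an ADP/ATP carrier of the inner mitochondrial membrane chosen after its values were seen, had a fold of 3.01 from 188 fragments, 188 bp before its end, and was deposited under SLC25A5-AS1. The strand of the counted fragments is not in the list, so overlapping antisense transcripts cannot be told apart.

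The class also followed gene length. The 162 members in genes of up to 3 kb were called in 70.4% (62.7 to 77.3%), with a median of 78.5 fragments. The share called was 61.2% in the 325 members in genes of 3 to 10 kb, 45.0 to 55.0% by its interval in genes of 10 to 50 kb (199 called of 398), and 29.2% (22.8 to 36.3%) in the 185 in genes over 50 kb, where the median was 8 fragments. In genes of up to 3 kb, 73.7% of summits lay within 500 bp of the end, a share that the distance rule raises by itself, since only the last part of so short a gene is more than 1 kb from its start. The share was 29.2% at 3 to 10 kb, 23.2% at 10 to 50 kb and 15.2% over 50 kb. By distance from the TSS, in contrast, little changed: the share called was 53.5% at 1000 to 1500 bp, 52.3% at 1500 to 2000 bp, 50.7% at 2000 to 2500 bp and 51.0% at 2500 to 3000 bp.

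**Figure D2:**
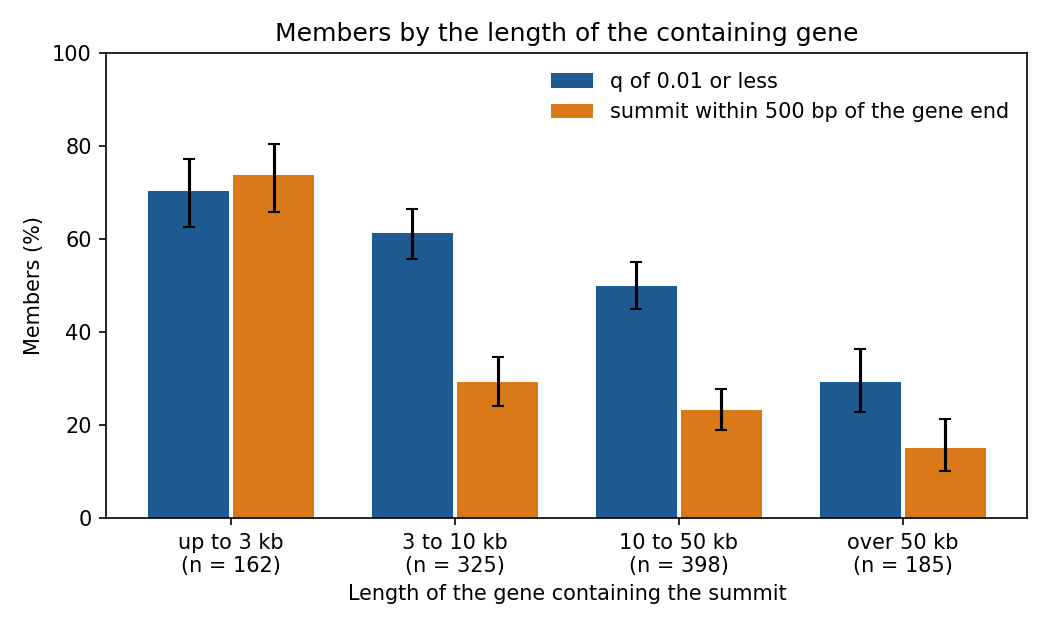
Share of members (%) with a q of 0.01 or less and with a summit within 500 bp of the gene end, by the length of the gene containing the summit. Bars carry exact 95% binomial intervals; the called share is 70.4% in genes of up to 3 kb and 29.2% in genes over 50 kb.

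Of the 10 members leading by −log10 q, 7 had the summit within 500 bp of a gene end (34.8 to 93.3%). Among the 538 called members in a gene of known strand the share was 40.5%. For the peak in LOC102724250, also among the 10, the strand was unknown. SNRPB, a core protein of the spliceosomal snRNPs, led with a −log10 q of 60.7 and a fold of 8.34 (exact Poisson 95% interval of the fragments over a fixed background 6.89 to 9.99) from 115 fragments on chromosome 20 (2461438 to 2461827, hg38). Its summit lay 15 bp before the end of SNRPB, and the peak was deposited under SNORD119, a small nucleolar RNA that the list gives by its gene number without a symbol. RPLP1, an acidic protein of the ribosomal stalk, had a fold of 5.93 (5.03 to 6.95) from 151 fragments, 726 bp before the gene end on chromosome 15 (69455252 to 69455776). MDK, the heparin-binding growth factor midkine, had a fold of 3.75 (3.28 to 4.27) from 227 fragments, 59 bp before the gene end on chromosome 11 (46383648 to 46383983). COX8A, a small subunit of cytochrome c oxidase, had a fold of 5.28 (4.44 to 6.23) from 137 fragments, 48 bp before the end.

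The leaders after these were of several functions. CSTB, an inhibitor of cysteine cathepsins, had a fold of 3.89 from 196 fragments, 73 bp before the end. IFITM3, an interferon-induced membrane protein that restricts virus entry, had a fold of 4.90 from 133 fragments, 21 bp before the end. KRT8, the type II keratin of simple epithelia and of hepatocytes, had a fold of 2.81 from 271 fragments, 112 bp before the end, and was deposited under MIR9898. YWHAZ, the 14-3-3 protein zeta, was not near the end, and RPLP1 was not within 500 bp of it either. The YWHAZ fold of 2.92 came from 282 fragments at 32069 bp before the gene end. A peak in LOC102724250 on chromosome 1 (633973 to 634299), with a fold of 5.19 from 123 fragments, lies in a segment nearly identical to mitochondrial DNA, so its source is uncertain.

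By fold alone, several leaders rested on few fragments. The highest fold, 8.93 (5.15 to 14.6), came from 14 fragments at a summit in no gene, upstream of ALDH3B2. ARHGEF26, an exchange factor for RhoG, had a fold of 8.0 (4.98 to 12.3) from 19 fragments, 134714 bp before the gene end. COPA, the alpha subunit of the COPI coat, had a fold of 7.53 from 27 fragments, and PHF1, a Polycomb-associated PHD finger protein, had 6.57 from 23. Folds with more fragments behind them were those of SNRPB (115 fragments) and RPLP1 (151 fragments), given above. So was that of TMA7, a protein associated with ribosomes (6.29 from 82 fragments, 54 bp before its end). EIF1B, a homologue of the start-codon factor EIF1, had 6.30 from 35 fragments. TMEM205 followed with 6.08 from 34 fragments and the nucleoporin NDC1 with 5.95 from 9. All 51 members with a fold of 4 or more were called.

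**Figure D3:**
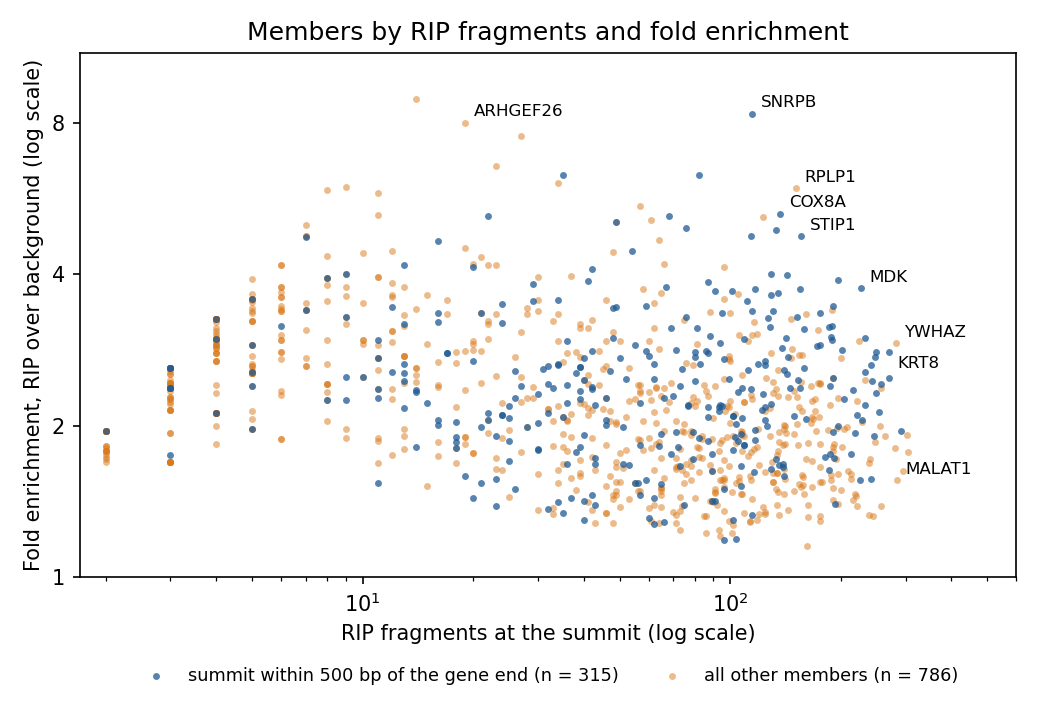
Fold enrichment of RIP over background against RIP fragments at the summit, both on log scales, for the 1101 members; blue points are the 315 summits within 500 bp of a gene end and orange points all others. Above 100 fragments the folds run from 1.16 to 8.34, with SNRPB highest, and members of few fragments form vertical rows because fragments are whole numbers.

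Of the 10 members with the most fragments, YWHAZ (282 fragments, fold 2.92), KRT8 (271 fragments, fold 2.81) and PKM had folds above the class median of 2.30, and the others were below it. The highest count, 304, lay in RNA28SN2, a multicopy 28S ribosomal RNA gene whose reads cannot be assigned to 1 copy, with a fold of 1.77. The cytoskeletal actin ACTB had 302 fragments and a fold of 1.92, and the glycolytic enzyme GAPDH had 292 and 1.95. MALAT1, a nuclear long non-coding RNA, had 285 fragments and a fold of 1.56, at a summit that the antisense gene TALAM1 also spans. ACTG1, the other cytoskeletal actin, had 281 fragments and a fold of 1.81, and NQO1, a quinone reductase, had 264 and 1.91. PKM, pyruvate kinase, had 270 fragments and a fold of 2.48, 115 bp before its end, and was deposited under GRAMD2A.

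In genes with more than 1 member, the folds of the peaks nearer to and farther from the gene end were compared. A member was found in 1008 genes, of which 60 held 2 members and 1, EFCAB14, held 3. Of 58 genes with 2 members and a known strand, the nearer peak had the higher fold in 43, with a median log2 difference of 0.25. Where both peaks were called it was so in 23 of 33, with a median log2 difference of 0.12. Where both peaks were called and the nearer one lay within 500 bp of the end, this was so in 14 of 17 genes, with a median log2 difference of 0.43. CALR had a fold of 3.73 (3.17 to 4.37) 68 bp before its end and 1.52 at 636 bp, where the interval ended at 1.78. COX5B, a subunit of cytochrome c oxidase, had 3.47 at 195 bp and 2.19 at 987 bp. CYC1, the cytochrome c1 of complex III, had 2.54 at 159 bp and 1.78 at 799 bp. GAPDH did not follow, with 1.95 at 443 bp and 1.99 at 1567 bp, nor did GRINA, a membrane protein, with 1.64 at 409 bp and 2.02 at 1904 bp. These genes other than CALR, CYC1 and GAPDH were chosen after their values were seen.

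**Figure D4:**
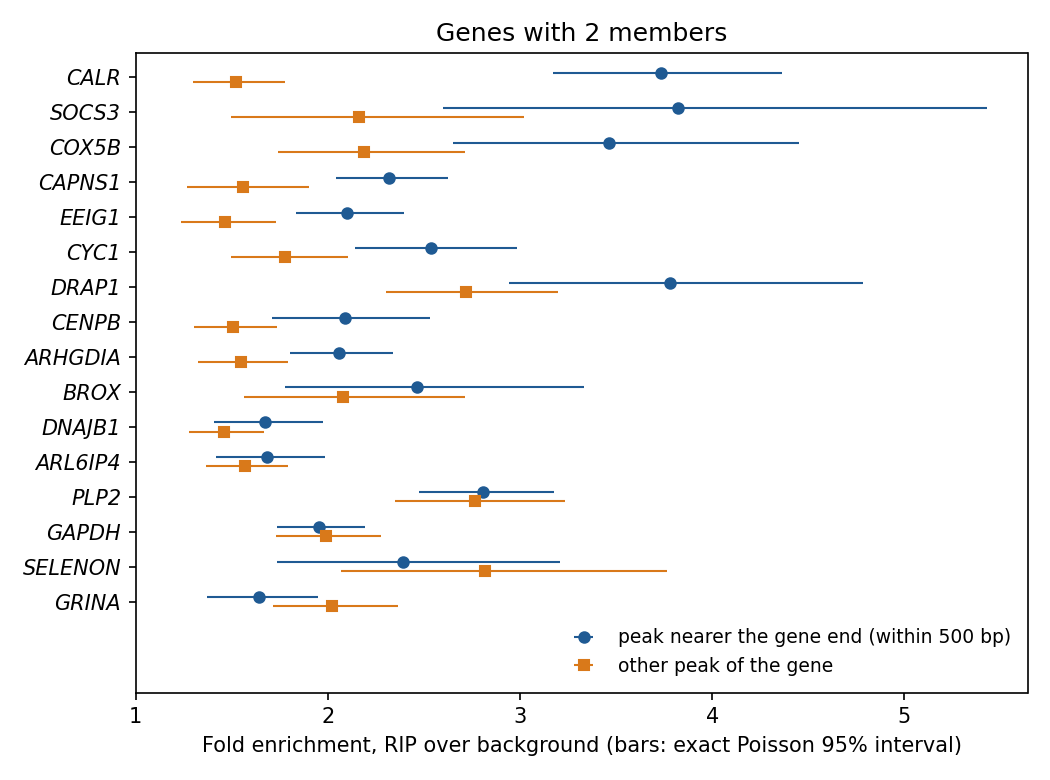
Fold enrichment of both members, with exact Poisson 95% intervals, in genes where both were called and the nearer one lay within 500 bp of the gene end (1 of the 17 is not drawn); blue circles are the peaks nearer the end and orange squares the others. The nearer peak is higher in 14 of the 17 genes, with the widest gap in CALR (3.73 against 1.52).

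Most genes with a member had no peak annotated as 3′ UTR, an outcome that the order of annotation favours by itself. The promoter class is given before exons are looked at. A peak in a 3′ UTR but close enough to a TSS was therefore not counted as a 3′ UTR peak. The counts do not show that these genes lack enriched RNA in their 3′ UTRs. How many members lie in a 3′ UTR was not tested. Of the 1008 genes, 435 (43.2%) had another peak outside the class and 158 had a 3′ UTR peak. In those 158 genes the best member and the best 3′ UTR peak had similar folds, with a median log2 ratio of 0.04 (−0.04 to 0.20) and the member higher in 84.

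Gene lists are described by how many of their genes had a member and how many a called one, with no test of any list. Of 79 cytosolic ribosomal protein genes, 17 had a member and all 17 had a called one, where 52.7% of the 1008 genes with a member did. The median of their highest folds was 2.44, beside 2.34 over all genes with a member. Their best members had a median of 155 fragments, beside 42 over all members. The share called depends on fragments: it was 74.2% among members with 20 or more. Median fragments were also high in oxidative phosphorylation (109), mitochondrial ribosome and import (125), chaperone (136) and actin and tubulin genes (220). Immediate early genes, at 129, had 9 of 17 called. Whether a list differs at equal fragments was not tested. After RPLP1 came RPL36 (fold 3.35 from 176 fragments) and RPL29 (2.36 from 216 fragments), of the large subunit, and RPS23 (3.25 from 146 fragments), of the small subunit. Ribosomal protein genes have many processed pseudogenes, so reads could be shared with copies. Of 63 oxidative phosphorylation subunits, 9 had a member, all 9 called, with a median highest fold of 3.28. In 8 of 9 the summit lay within 500 bp of the gene end, beside 31.2% of all members. These genes were short, with a median of 2618 bp beside 12153 bp over all members. The distance rule raises the near-end share in short genes by itself (73.7% in genes of up to 3 kb). Whether the share differs at equal gene length was not tested. Besides COX8A, the subunits with a member included the cytochrome c oxidase subunit COX6A1 (3.87 from 87 fragments, 41 bp before the end). Another was NDUFS8, an iron-sulfur subunit of complex I (3.28 from 127 fragments, 82 bp before the end, deposited under TCIRG1).

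Mitochondrial ribosome and import genes were alike: 15 of 50 had a member, all 15 called, with a median highest fold of 2.65. In 10 of 15 the summit lay within 500 bp of the end. The genes were short here too, with a median of 3050 bp, and the share at equal length was not tested. TOMM6, a small subunit of the outer membrane import complex, had 3.67 from 135 fragments, 66 bp before the end. TIMM8B, an intermembrane space chaperone, had 3.64 from 129 fragments, and MRPS24, of the small mitochondrial ribosomal subunit, had 3.71 from 91 fragments.

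Chaperones gave 9 genes of 39, all 9 called, with a median highest fold of 2.37. Among them were HSPE1, the mitochondrial co-chaperonin (4.77 from 114 fragments, 103 bp before the end), HSPB1, a small heat shock protein (3.15 from 189 fragments, 14 bp before the end), and the cytosolic HSP90AB1 (2.94 from 224 fragments, 1587 bp before the end, deposited under MIR4647). Actin, tubulin and motor light chain genes gave 13 of 43, all 13 called, with a median of 2.06. MYL6, a myosin light chain, had 3.39 from 189 fragments, the dynein light chain DYNLL1 had 3.14 from 186 fragments, and TMSB4X, which sequesters actin monomers, had 2.83 from 202 fragments.

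Translation factors gave 6 genes of 41, all 6 called, with a median of 2.01. EIF5A, the hypusinated elongation factor, had 2.98 from 232 fragments, 96 bp before the end, and was deposited under GPS2. Spliceosome and hnRNP genes gave 8 of 51, with 7 called and a median of 1.95. Besides SNRPB, HNRNPU had 3.22 from 116 fragments at 12141 bp before the gene end. PTBP1, a repressor of exon inclusion, had 2.14 from 124 fragments and was deposited under MIR3187. Variant histone and HMG genes gave 5 of 16, all 5 called, with a median of 1.72. H2AZ1, the H2A.Z variant, had 2.58 from 140 fragments, 120 bp before its end, and was deposited under DNAJB14. HMGA1 had 1.56 from 225 fragments. Replication-dependent histone genes gave 1 of 41, H4C15, which was not called (2.89 from 11 fragments).

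Proteasome and ubiquitin genes gave 12 of 51, with 8 called and a median of 2.25. UBE2C, the E2 enzyme of the anaphase-promoting complex, had 3.65 from 105 fragments, and the core particle subunit PSMB4 had 3.35 from 95 fragments. Redox, ferritin and metallothionein genes gave 6 of 30, with 5 called and a median of 2.18. The ferritin chains FTL and FTH1 had 2.42 from 258 fragments and 2.45 from 243 fragments. GPX4, which reduces lipid hydroperoxides, had 2.49 from 191 fragments, 63 bp before the end. Glycolysis genes gave 6 of 21, with 5 called and a median of 1.86, of which GPI, glucose-6-phosphate isomerase, had 3.29 from 76 fragments, 118 bp before its end, and was deposited under PDCD2L.

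The lists of signalling and stress genes follow. Immediate early and AP-1 genes gave 17 of 44, with 9 called and a median of 1.81. ID3, an inhibitor of bHLH factors, had 4.0 from 129 fragments and JUND, an AP-1 subunit, had 3.29 from 152 fragments. MYC had 2.27 from 197 fragments and the RNA-binding decay factor ZFP36L1 had 2.14 from 170 fragments. EGR1 was not called (1.38 from 65 fragments, chosen after its values were seen). Unfolded protein and integrated stress response genes gave 4 of 24, all 4 called, with a median of 1.76. ATF4, the central transcription factor of that response, had 1.91 from 246 fragments and DDIT4, an inhibitor of mTORC1, had 1.61 from 134 fragments.

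Of 24 m6A writers, erasers and readers, 18 had a peak of any class and 1 had a member, RBM15B, a subunit of the writer complex, which was not called (1.46 from 108 fragments). Of 43 deadenylation, decapping and decay genes, 31 had a peak of any class and 2 had a member, ZFP36L1 and ZFP36L2 (1.85 from 94 fragments), both called. CREB, CRTC, SIK and calcineurin genes gave 3 of 23, of which the kinase subunit PRKACA was called (1.71 from 78 fragments), whereas SIK1 and NR4A1 rested on 4 fragments each. Wnt and Hippo genes gave 3 of 42, with DVL3, a Dishevelled protein, called (1.95 from 66 fragments). Secreted growth factors and cell surface genes gave 4 of 37, with MDK and the tetraspanin CD63 (1.91 from 102 fragments) called. None of 25 hepatocyte secreted protein genes had a member, and 2 of them had a peak of any class. The same held for the 20 markers of blood and non-parenchymal cells, of which 4 had a peak. A list of peaks gives no level for a gene without one, so these counts do not describe how much of the cell's RNA those genes make up.

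**Figure D5:**
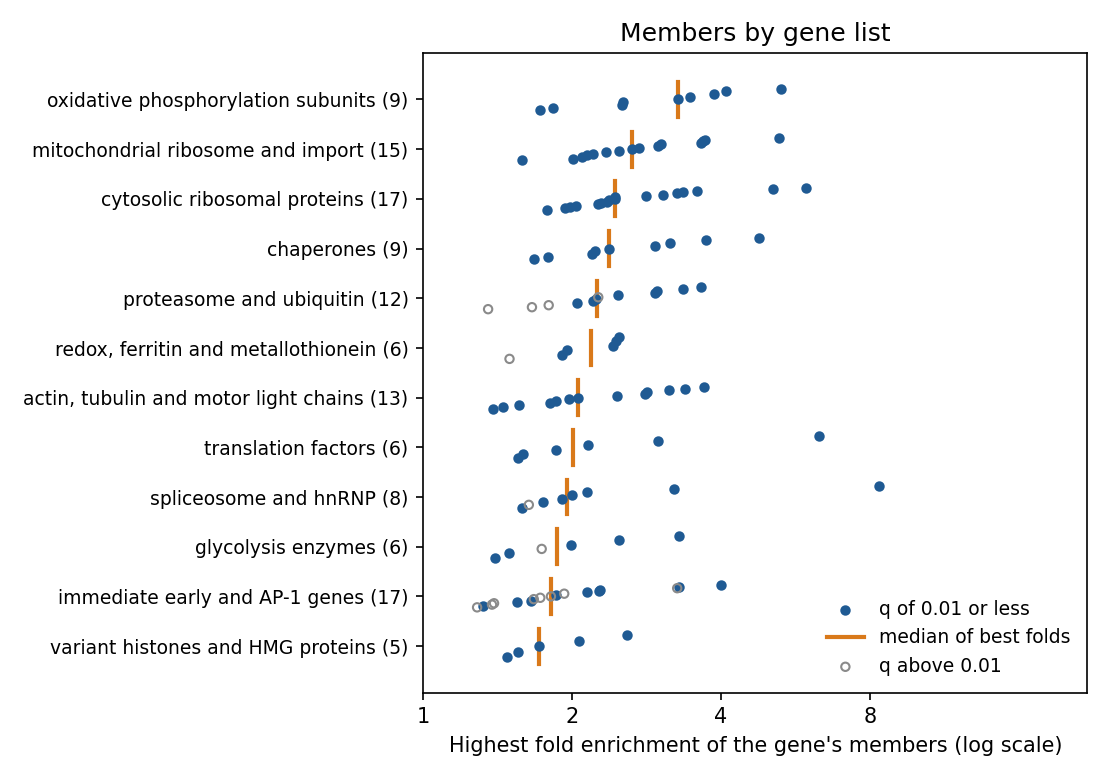
Highest fold enrichment of the members of each gene (log scale), by gene list, for the 12 lists with at least 5 genes with a member (number in brackets). Filled points had a q of 0.01 or less, open points did not, and orange bars are medians, from 3.28 for oxidative phosphorylation subunits to 1.72 for variant histones and HMG proteins.

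Members in non-coding genes were fewer, were called less often and rested on fewer fragments, with a higher median fold. Of the 1070 members in a gene, 81 were in non-coding genes (27.2% called, 17.9 to 38.2%), with a median of 6 fragments and a median fold of 2.61. The other 989 were in protein-coding genes (55.0% called), with a median of 50 fragments and a median fold of 2.26. The non-coding median of 2.61 is the fold that 3 fragments give over the lowest background. Of the 81, 38.3% rested on 4 or fewer fragments, beside 15.1% of the 989, so the higher median does not show stronger enrichment. The 81 comprised 47 in long non-coding RNA genes, of which 13 were called, and 31 in pseudogenes, with the rest in other types. Among the called ones, chosen after their values were seen, NORAD, a cytoplasmic RNA that binds Pumilio proteins, had 2 members with folds of 1.59 and 1.55 from 188 and 131 fragments. LINC00324 had 3.95 from 30 fragments, NDUFV2-AS1 had 3.19 from 39 fragments and LINC02067 had 1.96 from 185 fragments.

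By chromosome, members were spread unevenly. Chromosome 19 held 108 members (9.81%, against 4.70% of all peaks on main chromosomes), chromosome 17 held 81 (7.36% against 5.32%) and chromosome 1, near its share, held 113 (10.3% against 9.65%). Members were scarcer than other peaks on chromosome 2 (4.36% against 7.4%), chromosome 4 (2.82% against 4.68%) and chromosome 13 (0.545% against 1.57%).

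At the limits of the distance rule, peaks on either side were as follows. EIF1 and IL4I1 lay 1002 bp from the TSS, just inside, with folds of 1.59 from 113 fragments and 2.61 from 3. CTDNEP1, at 998 bp and deposited under GABARAP, and ATP13A3, at 998 bp, lay just outside with folds of 3.82 and 1.96. At the far limit RNA28SN2 (2992 bp) and the pseudogene MEMO1P1 (2996 bp, fold 3.39) lay inside, and TOB1 (3002 bp, fold 1.39) and GNAT2 (3007 bp, fold 2.21) lay beyond it.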

How the data were processed

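Per the submitters' processing notes, reads were processed with HISAT2 and MACS2 on hg38. Versions, options and the way the 4 libraries were combined were not given in the sources used here. Per the file headers, the deposited values are a fold enrichment (RIP over background, a ratio), −log10 p, −log10 q and a score, which was not used. RIP fragments and background at each summit were recovered from fold and −log10 p (largest residual 0.000189). The recovery found 100% of 1770 simulated peaks. These were simulated with the same formulas that the recovery inverts, so this does not show how the deposited values were made.

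Members were selected by the deposited annotation, distance and symbol. The rule keeps blank symbols: 148 members have one, and 70 of these have a gene number of a small nucleolar RNA or microRNA. Another 58 peaks were left out by symbol. Gene spans, strands and sequences came from RefSeq tables of GRCh38.p14. Where several genes held a summit, a protein-coding gene was preferred, next the deposited gene, and otherwise the shortest one. Strand was unknown for 60 members.

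Members, lists and rules were chosen with earlier results of these data known. Named genes were the 10 members leading by fold among called members, by −log10 q and by fragments, the 5 leading upstream members, up to 4 per list by −log10 q, genes with 3 or more members and the peaks nearest the distance limits. Some items that these rules take are not reported here. Shares have exact Clopper-Pearson 95% intervals, medians exact order-statistic intervals and folds exact Poisson intervals of the RIP fragments alone. Alternatives changed the q threshold, the distance limits, the symbol filter and the gene given to a summit. Python 3.11.15, pandas 2.3.3, scipy 1.17.1 and matplotlib 3.10.9 were used.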

Additional observations from a re-analysis of the deposited data

How the results depend on the processing

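No library could be left out and no paired analysis was possible because the list holds 1 combined value per peak. The main numbers (members, called share, median fold, median fragments, the shares upstream, in another gene and near a gene end, and listed genes with a called member) were recomputed under other settings. Those on unnamed small RNA genes, on genes with copies and on the gene end were chosen after seeing the data. Of these values, 52 stayed within the interval of the reported one, or within 1.5 times for counts, and 22 moved. Restricting to a q of 0.01 or less left 572 members, with a median of 94 fragments and 40.5% of summits within 500 bp of the gene end. Restricting to 20 or more fragments left 708, with 74.2% called, a median fold of 2.04, a median of 85 fragments, 42.8% in another gene and 39.4% near the end. Restricting to a fold of at least 2 left 699, with 56.7% called, a median fold of 2.61 and a median of 22 fragments. A distance above 2000 bp left 525. Downstream peaks alone were 727, with 16.2% in another gene and 27.8% near the gene end. The share in another gene was 42.0% without the symbol filter and 34.9% without unnamed small RNA genes. A q of 0.05 or less called 58.2%, and a −log10 q of at least 5 called 32.7%. With the end of the deposited transcript in place of the gene end, for the 629 summits inside it, 25.8% were near the end. Leaving out ribosomal RNA genes, pseudogenes and symbols starting with MT- moved none of the main numbers for which it was run. It was not run for the listed genes. The peak in the mitochondrial-like segment lies in a protein-coding gene and was deposited under MIR12136. It may therefore not have been left out by this setting. Of the listed genes, 115 had a called member, 97 by the deposited gene and 102 without summits in several genes. By the deposited gene, called genes numbered 2 for glycolysis (5 by the containing gene), 4 for spliceosome and hnRNP (7), 3 for redox (5), 3 for variant histones and HMG (5), 0 for CREB (1), 0 for Wnt and Hippo (1) and 1 for hepatocyte secreted proteins (0). Depth is unknown and the intervals carry no error of the background.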
